A study of Mus musculus with 4 samples.

Results

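The enzymes that build and cap the sugar chains of mucins are encoded by families of glycosyltransferase and sulfotransferase genes. Open chromatin was described here at 68 of them, out of 21627 protein-coding genes on the 19 autosomes and the X chromosome. The members were all protein-coding genes whose symbol is Galnt, Fut, B3gnt, Gcnt, St3gal, St6gal, St6galnac or Chst followed by a number, together with C1galt1 and B4galnt2. The rule follows gene names, so it also takes in enzymes known mainly for other glycans, such as Fut8 (fucose on N-glycans), St3gal5 (gangliosides) and Chst11 (chondroitin sulfate).

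Open chromatin was measured by bulk ATAC-seq, which reads where the enzyme Tn5 can cut, in wild-type mouse colonic organoids, which are cultures of the colonic epithelium. The 4 groups were colitis organoids with DMSO, colitis organoids with T-5224, control organoids with DMSO and control organoids with T-5224, with 1 library in each. The colitis organoids came from mice with chronic colitis and the control organoids from healthy mice. T-5224, an inhibitor of the AP-1 transcription factor, was given at 10 µM and the vehicle DMSO at 0.1%, each for 24 h, after which the cells were frozen and later thawed. All 4 libraries share the genotype, the batch label and growth in medium with Wnt, EGF, Noggin and R-spondin. The strain and age of the mice, and whether a culture was 1 clone or pooled animals, are not stated in the labels. The study's question was what AP-1 inhibition does to the binding of transcription factors. The values analysed were a single peak list, which carries no value per library. Colitis and control, and T-5224 and DMSO, were therefore not compared, and no value below has a replicate. The labels do not say which of the libraries the peaks were called on. Depth per library is unknown, and the expected background was a pileup of 7.63 at any base. Each value is the authors' fold enrichment at a summit, the point of highest pileup in a peak. The intervals in parentheses are exact Poisson 95% intervals of the pileup behind it and cover counting error only.

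Mucin-type glycosylation begins in the Golgi, where an enzyme of the Galnt family attaches N-acetylgalactosamine to a serine or threonine. C1galt1, B3gnt6 and the Gcnt enzymes extend this sugar to core structures and branches, and B3gnt enzymes lengthen the chains. Fucosyltransferases, sialyltransferases and sulfotransferases then add the end groups, which set the charge of colonic mucus and the sugars that microbes meet.

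Annotated starts were taken from RefSeq promoter sequences on GRCm38.p6, which cover 250 bases before to 50 bases after a start and had entries for 51 of the 68 genes. Of these, 6 sequences are shown because they belong to the strongest gene of 6 role groups, each at the start with the highest value within 500 bp. Capitals mark matches, on either strand, to any of 6 short motifs. The GC box, bound by Sp factors, was searched as GGGCGG. The motif of ETS factors, a large family, was CCGGAAG. That of CDX factors, which specify intestinal epithelium, was TTTATNG. The motif of GATA factors, which also act in the gut, was AGATAA. The AP-1 motif TGANTCA was absent from the 6 sequences below. The same held for the cyclic AMP response motif TGACGTCA, found at 1.45% of the members' starts and 2.26% of all starts.
Galnt7, chr8:57653006-57653305 on the minus strand: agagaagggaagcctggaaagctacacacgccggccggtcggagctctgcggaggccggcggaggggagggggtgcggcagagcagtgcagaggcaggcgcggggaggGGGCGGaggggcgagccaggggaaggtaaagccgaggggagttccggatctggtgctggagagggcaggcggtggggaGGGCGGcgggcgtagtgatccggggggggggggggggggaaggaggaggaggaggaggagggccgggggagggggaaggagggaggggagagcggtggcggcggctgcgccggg
Gcnt2, chr13:40859518-40859817 on the plus strand: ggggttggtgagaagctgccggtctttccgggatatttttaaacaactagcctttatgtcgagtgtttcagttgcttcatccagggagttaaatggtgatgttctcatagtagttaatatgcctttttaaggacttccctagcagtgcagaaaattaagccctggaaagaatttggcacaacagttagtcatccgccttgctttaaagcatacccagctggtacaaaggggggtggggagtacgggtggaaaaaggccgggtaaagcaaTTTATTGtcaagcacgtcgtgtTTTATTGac
B3gnt3, chr8:71701751-71702050 on the minus strand: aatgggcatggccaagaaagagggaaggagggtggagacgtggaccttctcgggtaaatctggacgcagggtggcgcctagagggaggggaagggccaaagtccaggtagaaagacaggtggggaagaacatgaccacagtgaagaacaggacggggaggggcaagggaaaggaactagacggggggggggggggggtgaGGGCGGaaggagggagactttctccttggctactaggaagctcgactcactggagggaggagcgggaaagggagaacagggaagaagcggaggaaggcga
Fut8, chr12:77237854-77238153 on the plus strand: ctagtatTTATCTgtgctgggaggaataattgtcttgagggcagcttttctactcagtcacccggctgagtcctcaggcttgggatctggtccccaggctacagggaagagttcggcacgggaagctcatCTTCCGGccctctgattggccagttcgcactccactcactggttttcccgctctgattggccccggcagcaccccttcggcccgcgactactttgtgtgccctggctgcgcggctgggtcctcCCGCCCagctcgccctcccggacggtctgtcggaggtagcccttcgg
St3gal3, chr4:118134897-118135196 on the minus strand: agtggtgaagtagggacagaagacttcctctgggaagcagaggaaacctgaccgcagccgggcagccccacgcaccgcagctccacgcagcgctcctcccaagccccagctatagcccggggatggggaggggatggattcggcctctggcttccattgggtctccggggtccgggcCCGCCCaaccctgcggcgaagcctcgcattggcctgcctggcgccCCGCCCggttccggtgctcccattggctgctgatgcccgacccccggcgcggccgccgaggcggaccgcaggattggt
Chst12, chr5:140505359-140505658 on the plus strand: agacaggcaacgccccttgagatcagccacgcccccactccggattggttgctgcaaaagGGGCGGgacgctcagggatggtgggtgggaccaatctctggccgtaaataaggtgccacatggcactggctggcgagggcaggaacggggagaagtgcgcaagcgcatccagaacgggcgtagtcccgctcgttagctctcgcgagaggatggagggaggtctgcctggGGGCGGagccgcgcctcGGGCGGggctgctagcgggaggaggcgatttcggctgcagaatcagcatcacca
The GC box was present in each of these except Gcnt2, whose start held CDX matches instead. The values within 500 bp of these starts were 55.5-fold at Gcnt2, 49.7-fold at Chst12, 39.0-fold at B3gnt3, 36.98-fold at St3gal3, 25.7-fold at Fut8 and 8.81-fold at Galnt7. Galnt7 and St3gal3 had their strongest summits inside the gene, 50856 and 7139 bp from its ends.

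Nearly all of the genes had at least 1 summit, but in most of them the strongest was below 20-fold. A summit was found inside the gene or within 1000 bp of it for 64 of 68 members (94.1%, Wilson 95% interval 85.8 to 97.7%), against 74.5% of all protein-coding genes. The Wilson interval treats genes as separate units, although genes are not replicates and St6galnac4 and St6galnac6 share summits. It is not a test against all protein-coding genes. A value of 20-fold or more was found at 24 of 68 (35.3%), against 47.1% of all protein-coding genes. The median of the strongest summit was 15.5-fold over the 68 members and 17.4-fold over all protein-coding genes, with genes that lack a summit at 0. The members were also lower with windows of 500, 2000 and 5000 bp, but summits strictly inside the gene gave 14.2-fold for the members and 8.0-fold for all protein-coding genes. Inside the gene alone, Fut1, Fut7, B3gnt4 and Chst13 had no summit. Values above 0 and under 10-fold were found at 23 of 68 members (33.8%). The highest of these was Chst3 with 9.27-fold. Of all protein-coding genes 59.5% had a higher value than Chst3, and 74.5% had any summit. At the other end, 8 of 68 members held 20 or more summits (11.8%), against 4.76% of all protein-coding genes. Among them were St3gal3 with 60 and St3gal6 with 30. The members were also longer, with a median length of 40808.5 bp against 17330 bp. Above 100 kb the median number of summits was 7 for members and 9 for all protein-coding genes. It was 3.5 and 1 up to 10 kb, 5 and 3 at 10 to 50 kb, and 7 and 6 at 50 to 100 kb. In bulk chromatin a low value can come from few cells with open chromatin or from weak opening in many, and these cannot be told apart.

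The counts were also taken by gene length. Among genes of up to 10 kb, 13 of 14 members had a summit (92.9%), against 52.3% of all protein-coding genes of that length. Among those of 10 to 50 kb all 25 members had one, against 84.2%. At 50 to 100 kb the members were lower, 10 of 12 (83.3%) against 91.0%. Above 100 kb the shares were 16 of 17 members (94.1%) and 92.4%. The median strongest summit up to 10 kb was higher in members, 14.2-fold against 3.01-fold for all protein-coding genes. It was lower at 10 to 50 kb (14.6 against 23.3-fold) and at 50 to 100 kb (16.9 against 26.2-fold). Above 100 kb it was 22.5-fold against 23.1-fold. Of the 64 strongest summits, 35 lay within 1000 bp of an outer end of the gene and 29 further inside. Counted at outer ends alone, 53 of 68 members had a summit (77.9%), against 64.3% of all protein-coding genes. At 4 members the strongest summit also lay in or within 1000 bp of another protein-coding gene: Galnt4 (Poc1b), B3gnt4 (Lrrc43), Fut11 (Sec24c) and St6galnac5 (Pigk).

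**Figure D1:**
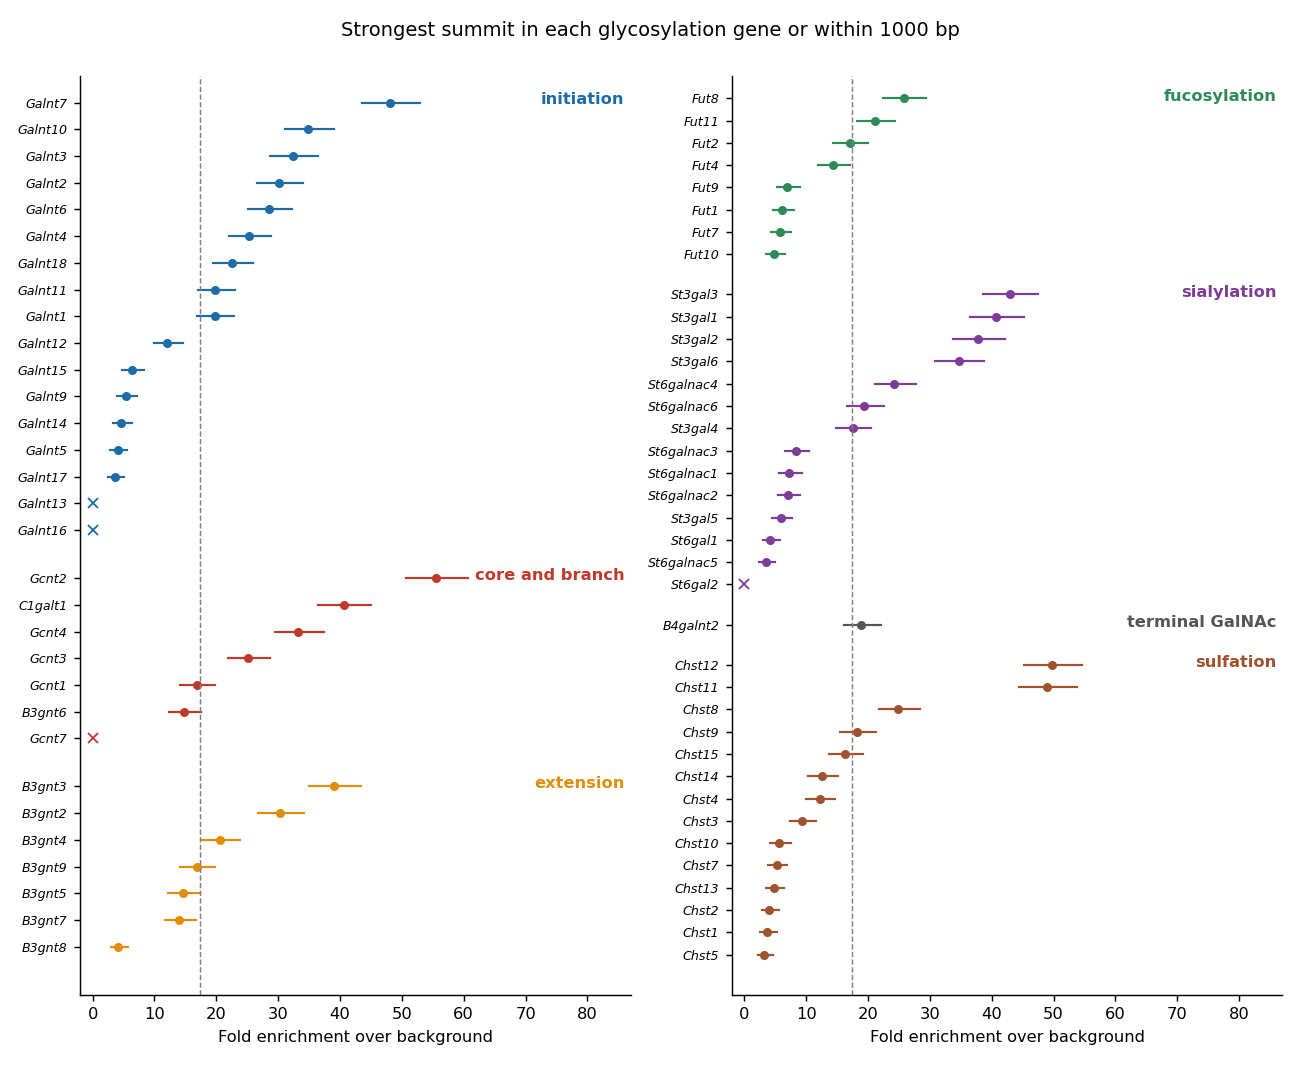
Strongest summit in each of the 68 genes or within 1000 bp, as fold enrichment over background (horizontal axis), grouped by role. Points are values, bars are exact Poisson 95% intervals, crosses mark the 4 genes without a summit and the dashed line is the median of all protein-coding genes, 17.4-fold. Every role group with more than 1 gene spreads from under 15-fold to above 25-fold.

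The initiating enzymes ranged from the strongest values to none. A summit was found at 15 of 17 Galnt genes (88.2%), against 74.5% of all protein-coding genes. The median of these 17 was 19.7-fold. Galnt7 and Galnt10, which act on peptides that already carry a sugar, had the highest values, 48.1-fold (43.6 to 53.0) and 34.9-fold (31.1 to 39.1). Their intervals did not overlap, but the summit of Galnt7 lay inside the gene and that of Galnt10 at an outer end. At outer ends Galnt7 had 16.5-fold (13.9 to 19.4), below Galnt10. Galnt3, known for glycosylating the phosphate hormone FGF23, had 32.3-fold (28.7 to 36.4). Galnt2, one of the widely used initiators, had 30.1-fold (26.6 to 34.0), and Galnt1, the other, 19.7-fold (16.9 to 22.9), which did not overlap that of Galnt2. The summit of Galnt2 lay 34613 bp inside the gene, and that of Galnt1 at an outer end. At outer ends Galnt2 had 17.4-fold (14.7 to 20.4), an interval that overlapped that of Galnt1. Galnt6, a close relative of Galnt3, had 28.5-fold and Galnt4 had 25.3-fold. Galnt18 (22.5-fold), Galnt11 (19.8-fold) and Galnt12 (12.1-fold) followed, and Galnt12 is an enzyme known from the digestive tract. The lowest values were at Galnt15 (6.38-fold), Galnt9 (5.45-fold), Galnt14 (4.64-fold), Galnt5 (4.06-fold) and Galnt17 (3.59-fold), whose intervals overlapped from each to the next. Galnt13, a brain enzyme on a gene of 682099 bp, and Galnt16 had no summit. The summit nearest to Galnt13 lay 56243 bp away with 3.13-fold, and that nearest to Galnt16 lay 33166 bp away with 2.67-fold.

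Genes of the core and branch enzymes had the highest median strongest summit of the role groups with more than 1 gene, 25.04-fold. This order depended on the measure. At outer ends the median was 15.8-fold, against 16.8-fold for the chain-extending B3gnt genes, and at annotated starts 16.8 against 17.6-fold. A summit was found at 6 of 7 core and branch genes (85.7%), against 74.5% of all protein-coding genes. Gcnt2, which adds branches to chains of repeated N-acetyllactosamine, had the highest value of all 68 members, 55.5-fold (50.7 to 60.7) in the region chr13:40859287-40861823 at its first start. Higher values were found at 7.39% of protein-coding genes. C1galt1, which adds the galactose of the commonest core, had 40.6-fold (36.4 to 45.1), read 579 bp outside the gene, and 13.7-fold within 500 bp of its start. Gcnt4 had 33.3-fold (29.5 to 37.3). Gcnt3, the branching enzyme of mucus-secreting tissues, had 25.04-fold (21.8 to 28.6), and Gcnt1, its counterpart known from leukocytes, 16.8-fold (14.2 to 19.8), which did not overlap. The summit of Gcnt3 lay 2980 bp inside the gene, and that of Gcnt1 at an annotated start. At its outer ends Gcnt3 had 15.8-fold (13.2 to 18.6), which overlapped the value of Gcnt1, and Gcnt1 had no summit at its ends. B3gnt6, which makes the core typical of colonic mucin, had 14.7-fold (12.3 to 17.5), and this summit lay 3208 bp inside the gene, against 6.96-fold at its ends. Gcnt7 had no summit, and the nearest lay 8903 bp away with 6.96-fold.

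All 7 genes of the chain-extending B3gnt enzymes had a summit at an outer end, against 64.3% of all protein-coding genes. The median of their strongest summits was 16.8-fold. B3gnt3, which extends the core made by C1galt1, had 39.0-fold (34.9 to 43.3) in the region chr8:71699775-71703862, which held all 5 of its summits. B3gnt2, a main enzyme of N-acetyllactosamine repeats, had 30.3-fold (26.7 to 34.2) inside the gene and 29.6-fold at an end. The values were 20.6-fold at B3gnt4, 16.8-fold at B3gnt9, 14.6-fold at B3gnt5, an enzyme of glycolipids, and 14.0-fold at B3gnt7, known for keratan sulfate chains. The intervals of these 4 overlapped from each to the next. B3gnt8 stood below them with 4.17-fold (2.94 to 5.76).

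The fucosyltransferase genes all had a summit, 8 of 8, against 74.5% of all protein-coding genes. Their median was 10.7-fold, and the summits of Fut1 and Fut7 lay outside the gene. Fut8, which puts fucose on the base of N-glycans rather than on mucin chains, had the highest value, 25.7-fold (22.5 to 29.3). Fut11 had 21.1-fold (18.2 to 24.4), at a summit that also lies at Sec24c. Fut2, the secretor enzyme that makes the H antigen of mucus, had 17.04-fold (14.4 to 20.02), above its paralogue Fut1 with 6.14-fold (4.62 to 8.02), 27532 bp away. The summit of Fut2 lay 1001 bp from its outer end, just outside the window counted as an end. The value at the ends of Fut2 was 8.23-fold (6.44 to 10.4), an interval that overlapped that of Fut1. Among the enzymes of Lewis-type antigens, Fut4 had 14.4-fold (12.0 to 17.1), Fut9 had 6.96-fold (5.32 to 8.94) and Fut7, known from leukocytes, 5.80-fold (4.32 to 7.63). Fut10 had 4.87-fold.

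Sialyltransferase genes had a summit at 13 of 14 (92.9%), against 74.5% of all protein-coding genes. The highest values were in the St3gal family. The median was 36.2-fold over 6 St3gal genes and 7.83-fold over 6 St6galnac genes. At outer ends these medians were 19.8-fold and 6.03-fold. St3gal3 had 42.9-fold (38.6 to 47.5), St3gal1, which caps the core made by C1galt1, 40.7-fold (36.6 to 45.2), St3gal2 had 37.8-fold (33.8 to 42.1) and St3gal6 had 34.7-fold (30.9 to 38.8). Each of these intervals overlapped the next. St3gal4 was lower with 17.5-fold (14.8 to 20.5), and St3gal5, the first enzyme of most gangliosides, had 5.91-fold. St6galnac4 had 24.2-fold (21.1 to 27.7) and St6galnac6 had 19.4-fold (16.5 to 22.5). These genes are neighbours 13 bp apart and share 5 summits, so their counts are not separate. St6galnac1, which makes the sialyl-Tn antigen on mucins, had 7.30-fold (5.63 to 9.33), inside the gene and with none at its ends. St6galnac3 (8.35-fold), St6galnac2 (7.07-fold) and St6galnac5 (3.48-fold) were low as well. St6gal1, the sialyltransferase of N-glycans, had 4.17-fold (2.94 to 5.76) at its first start. St6gal2, known from brain, had no summit, and the nearest lay 168879 bp away with 2.67-fold.

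B4galnt2, which makes the Sda antigen of the gut epithelium, had 18.9-fold (16.1 to 22.0) at its start. Each of the 14 Chst sulfotransferase genes had a summit, against 74.5% of all protein-coding genes, and their median was 10.7-fold. At outer ends 9 of 14 had one (64.3%), the share found over all protein-coding genes. The highest were a pair of chondroitin sulfotransferases, Chst12 with 49.7-fold (45.1 to 54.7) at its start and Chst11 with 48.9-fold (44.4 to 53.8) deep inside the gene. Chst8 had 24.9-fold and Chst9 18.2-fold, both enzymes that sulfate terminal N-acetylgalactosamine. Chst4, Chst2 and Chst5, which sulfate N-acetylglucosamine on mucins and selectin ligands, were lower. Chst4 had 12.2-fold (9.97 to 14.7), Chst2 had 4.06-fold (2.85 to 5.62) and Chst5 had 3.25-fold (2.18 to 4.67). The interval of Chst4 did not overlap those of Chst2 and Chst5. Of the other 7, Chst15 (16.2-fold), Chst14 (12.5-fold) and Chst3 (9.27-fold) were strongest, and Chst10, Chst7, Chst13 and Chst1 ranged from 3.71 to 5.68-fold.

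Of 12 members with several annotated starts, 7 had a summit at some of them, 3 at every start (Gcnt4, Chst15 and St3gal6) and 2 at none (Fut7 and Galnt16). Of 69 starts of 51 members, 47 had a summit within 500 bp, at a median position of -13 bp from the start. At least 1 start was open in 42 of the 51 (82.4%), against 62.7% of protein-coding genes with an entry. Gcnt2 has 3 starts, which give alternative first exons. Its first had 55.5-fold, the second, 26990 bp downstream, had no summit, and the third, 57866 bp downstream, had 20.9-fold (17.9 to 24.1). In Gcnt1 the open start was the second of 3, with 16.8-fold, and neither outer start had a summit. In Fut8 the first pair of starts, 635 bp apart, had 25.7-fold and 18.7-fold, and the starts at 150760 and 172037 bp downstream had none. In St6gal1 the first start had 4.17-fold and the starts 1281 and 65730 bp downstream had none. In St3gal6 the second start, 827 bp downstream, had 22.1-fold (19.1 to 25.5) and the first 7.19-fold (5.53 to 9.20). Of 15 members without a summit at an outer end, 5 had one at an annotated start: Gcnt1, Chst11 (13.2-fold), Chst15 (10.6-fold), Galnt14 (4.64-fold) and Chst3 (3.59-fold).

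Starts were also sorted by their CpG dinucleotides. The measure was the ratio of observed to expected CpG dinucleotides in the 300 bases at the start, with 0.6 or more called CpG-rich. Of 38 CpG-rich starts of members, in 34 genes, 33 had a summit (86.8%), against 92.3% of CpG-rich starts of all protein-coding genes. Starts of 1 gene are not separate units, so no interval is given for these shares. All 3 starts of Galnt16 are CpG-rich and lacked a summit. The median value at CpG-rich starts was 13.6-fold for the members and 29.7-fold for all. Of 31 CpG-poor starts of members, in 24 genes, 14 had a summit (45.2%), against 32.0% of CpG-poor starts of all protein-coding genes. Of the open starts 33 of 47 were CpG-rich in members (70.2%), against 72.8% in all protein-coding genes. The GC box was present at 42 of 69 starts of members (60.9%), against 46.7% of all starts. The ETS motif was present at 2 of 69 (2.90%), against 11.7% of all starts, and at starts with a summit the shares were 2.13% and 17.4%. The CDX motif was present at 4 of 69 (5.80%), against 9.49% of all starts, and the GATA motif at 5 of 69 (7.25%), against 9.68%. At starts with a summit, the GATA motif was present at 8.51% in members and 5.82% in all, the CDX motif at 2.13% and 6.83%, and the GC box at 78.7% and 66.2%.

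**Figure D2:**
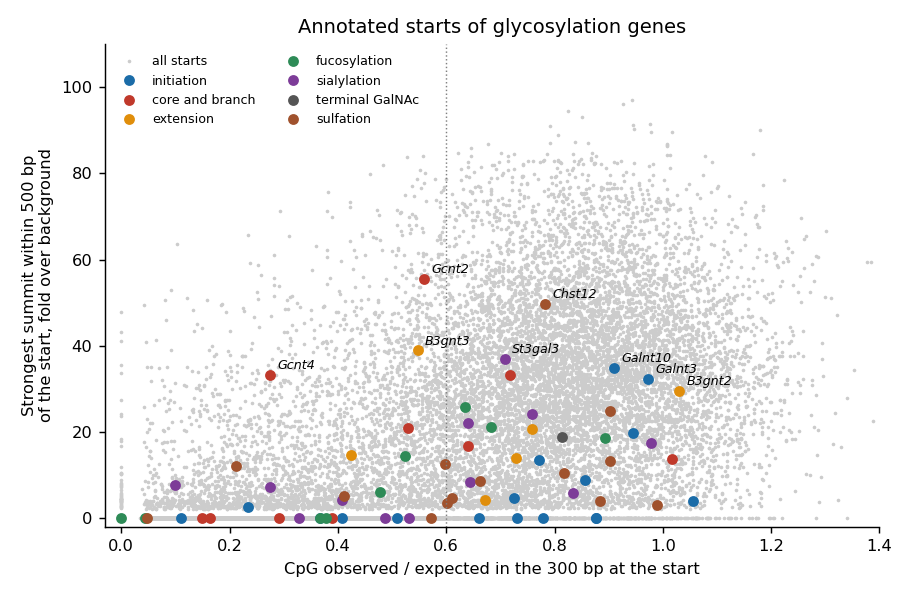
Annotated starts by CpG ratio in the 300 bases at the start (horizontal axis) and strongest summit within 500 bp in fold over background (vertical axis). Coloured points are the 69 starts of glycosylation genes, grey points all 21044 starts of protein-coding genes (4 lie outside the axes), and the dotted line is the ratio of 0.6. Gcnt2, B3gnt3 and the first start of Gcnt4 are high at ratios below the line, and the summit of Gcnt4 is shared with its CpG-rich second start, to which it is nearer.

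The AP-1 motif was found at 5 of 69 (7.25%) against 7.04% of all starts, and at starts with a summit the shares were 4.26% and 5.21%. The 5 matches are shown with 10 bases on each side, because AP-1 is the factor that T-5224 targets. Capitals mark the match to TGANTCA.
Gcnt4, chr13:96924211-96924237 on the plus strand: ccctttggggTGAATCActtacacacc
Chst4, chr8:110039377-110039403 on the minus strand: gaggagttcaTGAGTCAgagagagaac
Galnt15, chr14:32029035-32029061 on the plus strand: tgctctgaccTGACTCAaggcatccca
Galnt16, chr12:80518631-80518657 on the plus strand: tcttcgctggTGACTCAggtccgctcg
St6gal1, chr16:23290445-23290471 on the plus strand: ttgtcctctgTGAATCAttggctaatc
Gcnt4 had a summit of 33.3-fold at 296 bp from this start, which is its first. The same summit lay at -73 bp from the second start, whose sequence held no AP-1 match. Chst4 had 12.2-fold at -113 bp. The start of Galnt15, the second start of Galnt16 and the third start of St6gal1 had no summit within 500 bp. These matches describe letters in the reference and say nothing of binding.

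Away from gene ends the members were assigned many regions. A region was counted where its strongest summit lay more than 1000 bp from every protein-coding gene end and was nearest to an end of a member within 100 kb. There were 563 such regions at 56 of 68 members, against 69.6% of all protein-coding genes with at least 1. The median was 6 per member and 2 per protein-coding gene. At least 10 were assigned to 24 of 68 members (35.3%), against 11.9% of all protein-coding genes. The regions themselves were of usual strength, with a median of 4.75-fold against 4.64-fold for all 86417 regions assigned to protein-coding genes. Of the 563, 309 lay inside the member, 22 inside another protein-coding gene and 232 between protein-coding genes. Within length classes, at 10 to 50 kb the median was 6 for members and 2 for all, and above 100 kb it was 12 and 7.

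**Figure D3:**
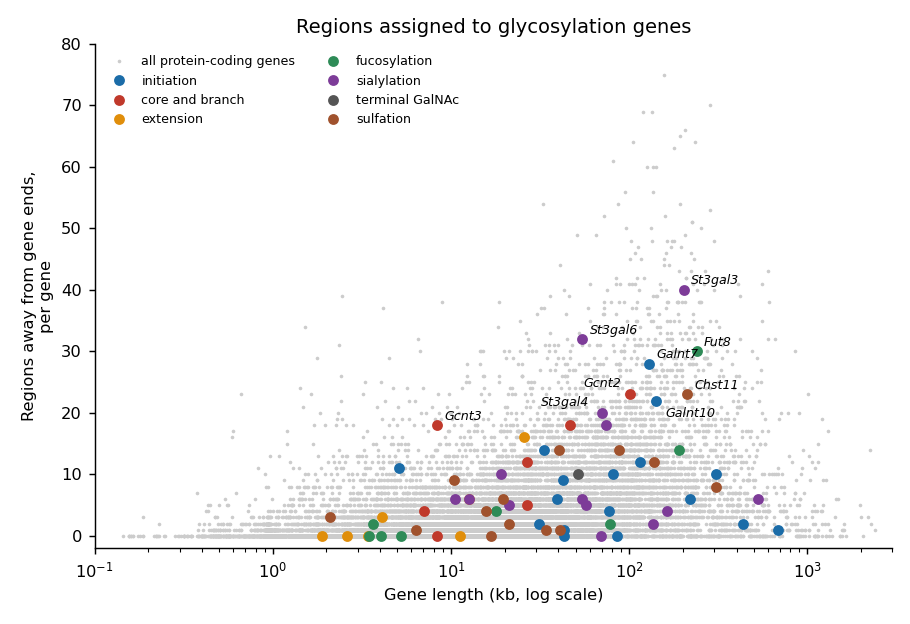
Regions away from gene ends per gene (vertical axis) by gene length in kb (horizontal axis, log scale). Coloured points are the 68 glycosylation genes by role, grey points all protein-coding genes. St3gal3 (40 regions), St3gal6 (32) and Fut8 (30) have the most among the coloured points, and Gcnt3 has 18 on a gene of 8396 bp.

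St3gal3 had the most, 40, followed by St3gal6 with 32, Fut8 with 30 and Galnt7 with 28. Gcnt2 and Chst11 had 23 each, Galnt10 had 22, St3gal4 had 20, and Gcnt1, Gcnt3 and St3gal1 had 18 each. In St3gal3 most summits lay in a pair of stretches: 19 of 60 lay from 1 kb before to 20 kb after the first start, with a top value of 42.9-fold, and 27 lay in a stretch of 35 kb that begins 130 kb into the gene, with a top value of 25.6-fold. Between these stretches lay 12 more, up to 11.0-fold, and beyond them 2. In Fut8 16 of 42 lay before the gene between 66 and 40 kb upstream, up to 27.8-fold (24.4 to 31.6) at chr12:77179179-77180378 inside the noncoding gene Gm40446. From 5 kb after the first start to the end of Fut8 the highest of 9 summits was 8.35-fold. In Galnt7 the strongest stretch was 37 to 80 kb into the gene, where 17 of 37 summits lay, led by chr8:57601613-57603294 with 48.1-fold and chr8:57588267-57589916 with 40.5-fold (36.3 to 44.9). The value at its outer ends was 16.5-fold (13.9 to 19.4), below both. In Chst11 the region chr10:83031732-83033977 carried 48.9-fold and chr10:83069579-83070660 had 28.5-fold (25.1 to 32.3), against 13.2-fold (10.9 to 15.9) at the start. St3gal6 had its highest outside region 32002 bp upstream, at chr16:58555551-58557288 with 25.5-fold.

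**Figure D4:**
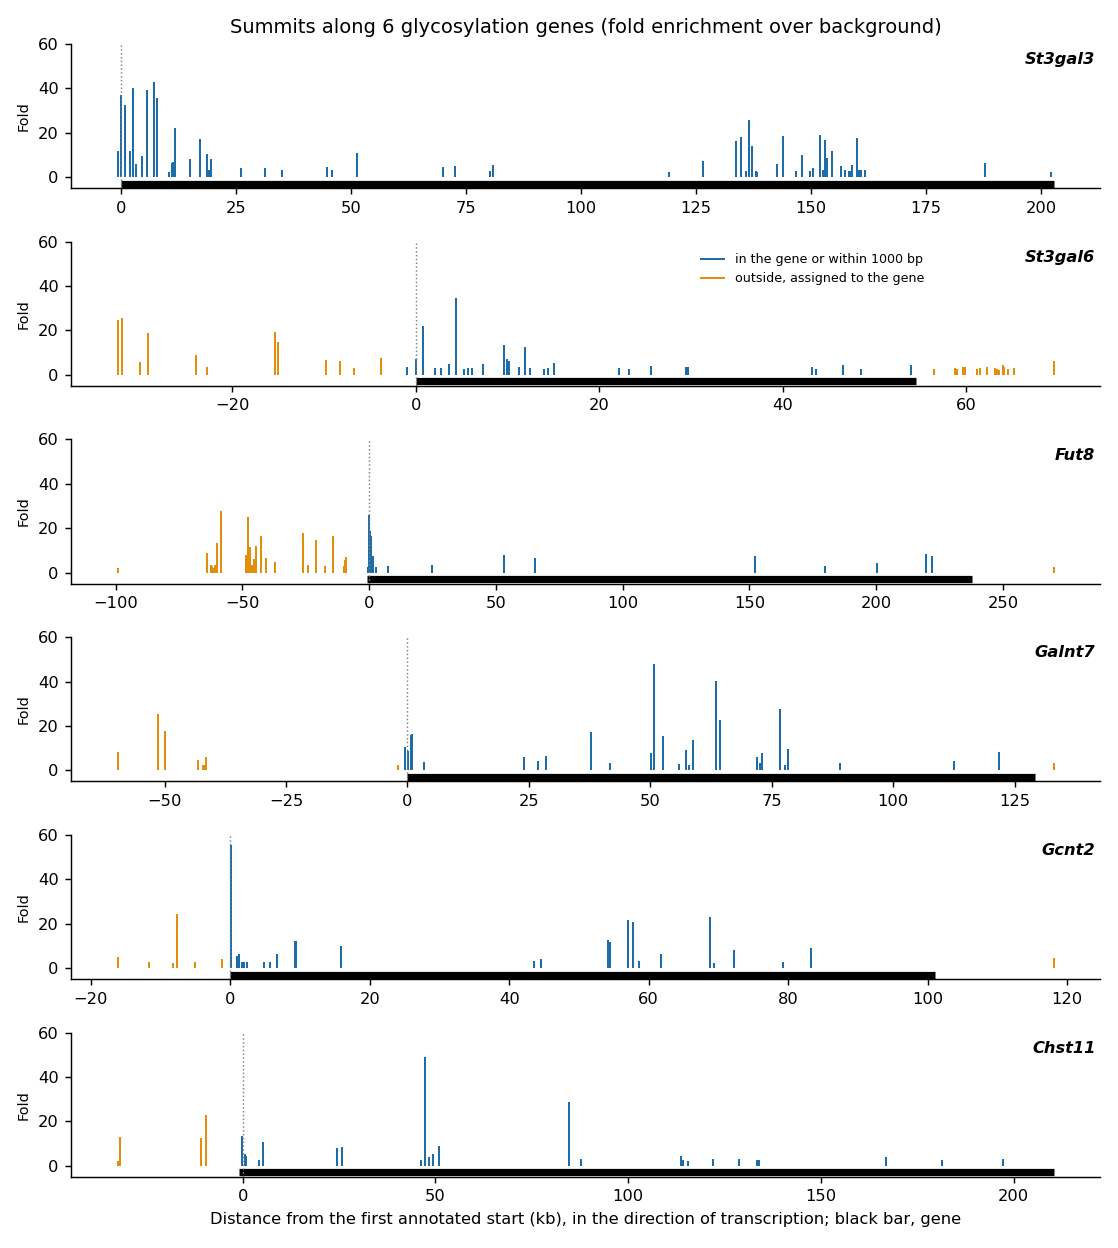
Summits along 6 glycosylation genes by distance in kb from the first annotated start, in the direction of transcription (horizontal axis), with fold over background as bar height. Blue bars lie in the gene or within 1000 bp, orange bars belong to regions outside that were assigned to the gene, and the black bar is the gene. Galnt7 and Chst11 peak inside the gene, Gcnt2 at its first start, and Fut8 has most of its orange bars before the start.

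In 19 of 68 members (27.9%) the strongest region away from gene ends exceeded every summit in the gene or within 1000 bp, against 17.1% of all protein-coding genes. B4galnt2 had 46.7-fold (42.3 to 51.5) at chr11:95858170-95860631, 4743 bp outside the gene, against 18.9-fold at its start, and a region on the other side, chr11:95925853-95926767, had 36.6-fold. Gcnt3 had 43.7-fold (39.4 to 48.3) at chr9:70052633-70056258, 14451 bp outside. Chst4 had 41.6-fold (37.4 to 46.2) at chr8:110021991-110024003, 6034 bp outside, where the gene itself had 12.2-fold. Gcnt1 had 39.2-fold (35.1 to 43.6) at chr19:17316191-17317227, 9331 bp outside. All of these regions lie between protein-coding genes. Galnt15 (34.7-fold) and Fut9 (28.9-fold) owed theirs to regions 98281 and 95695 bp away, just inside the limit of 100 kb, so their assignment is the least certain. Just beyond the limit, the highest value nearest to a member was 47.7-fold, 108573 bp from B3gnt2.

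The genes that supply these enzymes had strong summits. All 18 genes for sugar and sulfate donors had a summit at an outer end, with a median of 34.3-fold for the strongest summit. A value of 20-fold or more was found at 17 of 18 (94.4%). Over all protein-coding genes the shares were 64.3% at an outer end and 47.1% with 20-fold or more. Uap1, which makes the donor of N-acetylglucosamine, had 86.95-fold and Papss1, which makes the sulfate donor, 83.1-fold. All 23 genes of N-glycan synthesis also had one at an outer end, with a median of 36.8-fold, and 20 of 23 had 20-fold or more, led by Stt3a (82.8-fold) and Alg12 (72.5-fold), which act in the endoplasmic reticulum. Of 5 genes for galactosylation and its chaperone, B4galt1 (55.3-fold) and B4galt5 (49.5-fold) were the highest, and C1galt1c1, the chaperone of C1galt1, had 22.6-fold. Of the mucins themselves 9 of 13 had a summit in the gene or within 1000 bp (69.2%), near the 74.5% of all protein-coding genes. At an outer end 5 of 13 had one (38.5%), against 64.3% of all protein-coding genes. The median strongest summit of the mucins was 4.06-fold, against 17.4-fold for all protein-coding genes. Another 2 of the list, Muc12 and Muc17, were not analysed here. Muc4 (44.98-fold) and Muc13 (33.7-fold), both membrane mucins, were the strongest. The summit of Muc4 lay inside the gene, with 4.17-fold at its outer ends, and that of Muc13 lay at an end. Muc2, the gel-forming mucin of the colon, had 2.90-fold, and Muc5ac, Muc5b, Muc15 and Muc20 had none. No test compares these lists, since 1 peak list has no replicates and genes are not replicates.

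**Figure D5:**
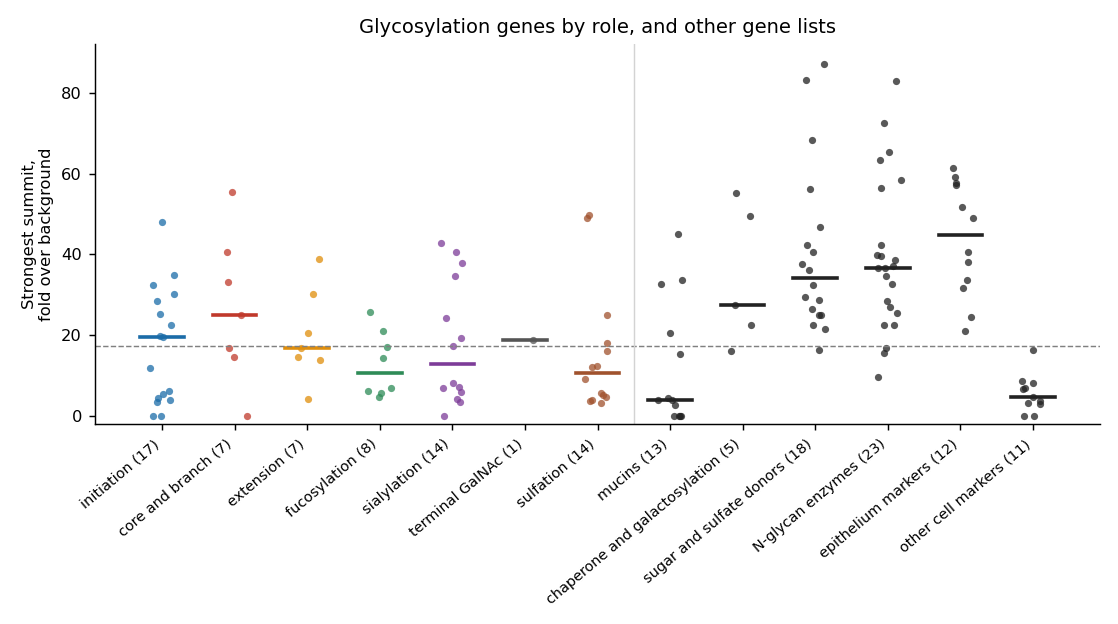
Strongest summit per gene in fold over background (vertical axis) for the glycosylation genes by role, left of the grey line, and for other gene lists, right of it, with the number of genes in parentheses. Points are genes, bars medians and the dashed line the median of all protein-coding genes. The donor and N-glycan lists have medians of 34.3 and 36.8-fold, above every role group.

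The labelled cell type, colonic epithelium, was checked against its markers. All 12 epithelial marker genes had a summit of 20-fold or more, against 47.1% of all protein-coding genes. They ranged from Cdx1 (21.0-fold) to Cldn7 (61.3-fold). Of 11 markers of other cells 9 had a summit (81.8%), against 74.5% of all protein-coding genes. All of these were under 20-fold, with Col1a1 (16.3-fold) and Pdgfra (8.81-fold) highest. The leukocyte markers Ptprc and Cd3e had none. The other leukocyte markers, Itgam and Csf1r, had 6.96-fold and 3.71-fold. Whether cells other than epithelium add to the values at single members was not tested.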

How the data were processed

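Bulk ATAC-seq of 4 mouse colonic organoid libraries, 1 in each of 4 groups, was represented by 1 deposited peak list. Per the submitters' processing notes, Bowtie2, MACS2 and mm10 were used, with no versions or settings given in the sources used here. The authors deposited 157922 summits in 113404 regions. Each has the authors' fold, a linear ratio that the values show to be pileup over background with 1 added to both, the -log10 of the deposited p-value and q-value, and a deposited score of 10 times -log10 q. The lowest deposited fold was 2.09, so weaker sites are not listed.

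Pileups were recovered from the fold: a step of 0.116 per count gave whole numbers to within 0.000218 (tolerance 0.01). The lowest pileup was 17, with an interval of 1.26 to 3.27-fold, so low values are imprecise. Pileup counts reads or fragments without molecular identifiers, so intervals cover counting error only. Genes came from the RefSeq table of GRCm38.p6, the assembly of mm10, as outer bounds. The strongest summit in each gene or within 1000 bp was taken, and genes with none were set to 0. Motifs were searched on both strands.

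No test was run, because 1 list has no replicates. Named were all members by role, in full the top 10 by fold, the top 10 by number of regions outside gene ends and those without a summit, and from other lists the 2 strongest genes and those without a summit. C1galt1c1, Muc2, Cdx1 and the stretches described along genes were chosen after their values were seen. The members and lists were chosen with earlier results of these data known. Python 3.11.15, pandas 2.3.3 and scipy 1.17.1 were used. One marker gene is not reported here. Scripts were checked on simulated data. Alternatives covered the window, the q threshold, the distance limit and gene ends.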

Additional observations from a re-analysis of the deposited data

How the results depend on the processing

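The share of members with a summit was 88.2 to 94.1% under every alternative window, q threshold and assignment except counting outer ends only (77.9%, all protein-coding genes 64.3%) and annotated starts only (82.4%, all 62.7%). The median fold stayed between 14.2 and 16.5 under the same settings, but was 8.75 at outer ends (all 9.62) and 12.2 at annotated starts (all 10.7). Its order against all protein-coding genes differed between settings: the members were lower with the windows of 500 bp (15.5 against 16.8), 1000 bp (15.5 against 17.4), 2000 bp (15.5 against 18.2) and 5000 bp (16.5 against 20.5), with both q thresholds, at outer ends and in genes of up to 100 kb, and higher with no window (14.2 against 8.0), with summits nearest to an own end (15.5 against 13.1) and at annotated starts. With no window the strongest summit changed at 14 members, and with a -log10 q of at least 10 at 4, leaving 8 without a summit in either case.

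The 563 regions away from gene ends numbered 332 with a limit of 25 kb and 326 when the -log10 q had to reach 10, since both settings admit fewer regions. Other settings gave 444 to 587, and counting noncoding gene ends as well gave 524. The annotated start, the limit of 100 kb on gene length and the noncoding ends were added after seeing the data.

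No paired analysis was possible because each group has 1 library and the peak list carries no value per library. Depth per library is unknown, and sites under the peak threshold are not listed.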
